A study of Mus musculus with 46 samples.

Results

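T cell receptor beta (TCRβ) rearrangements of regulatory T cells (Treg) were compared between pregnant and non-pregnant mice with EAE, experimental autoimmune encephalomyelitis, in which immunization leads to an inflammatory disease of the central nervous system that models multiple sclerosis. Libraries were chosen by their labels. All 5 Treg libraries of EAE mice at embryonic day 18 (E18) were set against the 1 Treg library of a non-pregnant EAE mouse that was analysed, which makes 6 of the 17 libraries of the series at hand. The labels list 5 samples of the non-pregnant group, and the others were not analysed here. Both groups were CD4+Foxp3+ Treg. The source was spleen together with lymph nodes, and all mice were of the DEREG strain, whose Foxp3-driven transgene marks Treg. The groups differed in gestational state (E18 or non-preg). The labels give no age and do not say whether animals were pooled. The Treg label could not be checked against Foxp3, because a table of TCRβ rearrangements from genomic DNA holds no transcript. By its title the study is about autoreactive Treg that expand in pregnancy, and the comparison asks whether large Treg clones and the make-up of the repertoire differ with pregnancy in EAE.

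A TCRβ chain is made in the thymus by joining a V, a D and a J segment. Bases are trimmed from the segment ends and others are inserted at the joints without a template. The third complementarity-determining region (CDR3) spans these joints and makes most of the contact with the presented peptide. Each T cell passes its rearrangement to its daughter cells, so the share of reads with one rearrangement follows the size of a clone. Treg restrain autoimmune responses, and in pregnancy they are known for limiting maternal responses to the fetus. A rearrangement is defined here by its V, its J and its CDR3 nucleotides. Rearrangements with the same V and the same CDR3 protein sequence form a clonotype.

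The 5 E18 libraries held 278420 to 404854 reads in 4401 to 9384 clonotypes, and the non-pregnant library held 415058 reads in 10086 clonotypes. A count of 0 allows 3 reads, or 0.000723% to 0.00108% of a library. The number of cells behind a library is unknown, and the reads carry no molecular identifiers. More cells of a clone and more copies per cell therefore cannot be told apart, and all intervals cover counting error only. With 1 library against 5, an exact two-sided permutation test has 6 assignments and cannot give a p below 0.333. Single values are therefore described by whether the non-pregnant library lay inside or outside the range of the E18 libraries. If the 6 libraries were alike, any given one would lie outside the range of the others with probability 0.333.

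Of the 6 pairs among E18 replicates 1 to 4, 4 stood furthest apart in how many identical rearrangements they shared. Replicates 1 and 3 shared 1035 identical nucleotide rearrangements, replicates 2 and 3 shared 933, replicates 2 and 4 shared 907, and replicates 1 and 2 shared 482. Replicates 1 and 4 shared 157 and replicates 3 and 4 shared 121, which as numbers lie inside the range of the pairs with the non-pregnant library. They were 3.44% and 2.65% of the rearrangements of replicate 4, which shared 1.66% with the non-pregnant library. Replicate 4 listed only 4565 rearrangements and the non-pregnant library 10550. Over all possible pairs of rearrangements, both values lay above every pair with E18 replicate 5 or the non-pregnant library. The 4 pairs of E18 replicate 5 with another E18 library shared 74 to 149, and the 5 pairs with the non-pregnant library shared 76 to 163. Rearrangements that another of the 6 libraries also listed held 37.8%, 60.2%, 72.3% and 72.3% of the reads of E18 replicates 1 to 4, 20.8% in E18 replicate 5 and 9.62% in the non-pregnant library. A carry-over filter, which dropped a rearrangement where its reads were under 1% of its reads in any other library, removed 1.29% to 12.7% of the rearrangements and at most 0.519% of the reads. After the filter replicates 2 and 4 still shared 621, replicates 1 and 3 shared 500 and replicates 2 and 3 shared 440. Replicates 1 and 2 shared 105, replicates 1 and 4 shared 57 and replicates 3 and 4 shared 49, while the pairs with E18 replicate 5 shared 35 to 75. Taken over all possible pairs of rearrangements, the 6 pairs among replicates 1 to 4 still lay above every pair with E18 replicate 5 or the non-pregnant library. Whether these 4 libraries come from 4 independent samples was not tested. Results are therefore given beside E18 replicate 5, which has no such excess, and were repeated with each rearrangement kept only in the library where its share was largest.

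**Figure D1:**
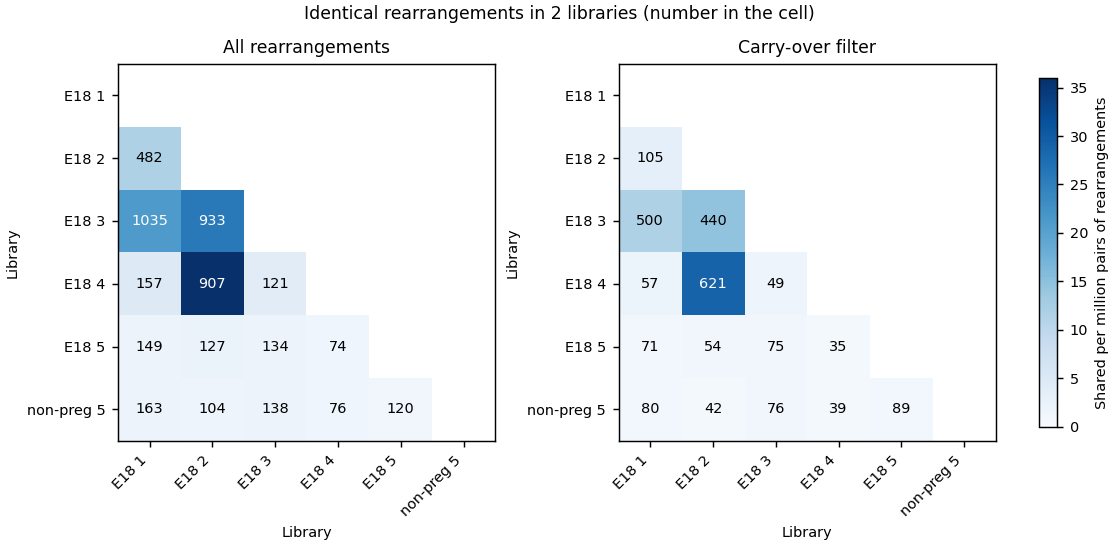
Number of identical rearrangements (same V, J and CDR3 nucleotides) in each pair of the 6 libraries, before (left) and after (right) the carry-over filter; the colour gives that number over all possible pairs of rearrangements. The dark cells are pairs among E18 replicates 1 to 4 (up to 1035 shared), and all pairs with E18 replicate 5 or the non-pregnant library are pale.

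The largest clonotypes are shown first, because they set the top of the clone size distribution. The CDR3 of the largest clonotype of E18 replicates 2 to 5 and of the non-pregnant library and of the next 2 of the non-pregnant library are printed 5′ to 3′ from the deposited tables, with inserted bases in capitals (a line without capitals has none).
E18 replicate 2, TRBV20 TRBJ2-5: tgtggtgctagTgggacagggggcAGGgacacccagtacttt
E18 replicate 3, TRBV13-1 TRBJ2-7: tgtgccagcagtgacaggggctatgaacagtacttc
E18 replicate 4, TRBV13-2 TRBJ2-5: tgtgccagcggGAaagacacccagtacttt
E18 replicate 5, TRBV1 TRBJ1-6: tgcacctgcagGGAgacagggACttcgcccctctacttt
non-pregnant, TRBV1 TRBJ2-7: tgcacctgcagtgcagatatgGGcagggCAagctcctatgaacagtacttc
non-pregnant, TRBV1 TRBJ2-4: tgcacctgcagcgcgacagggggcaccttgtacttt
non-pregnant, TRBV13-2 TRBJ2-5: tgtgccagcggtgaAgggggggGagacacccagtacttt

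A single clone of E18 replicate 2, the TRBV20 TRBJ2-5 clone printed above with a CDR3 of 14 amino acids, held 32.9% of that library's reads (Wilson 95% interval 32.8% to 33.1%). It held 0.0176% or less in each of the other 5 libraries. The largest clones of E18 replicates 3 to 5 were TRBV13-1 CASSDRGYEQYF at 2.02% in replicate 3, TRBV13-2 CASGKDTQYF at 4.29% in replicate 4 and TRBV1 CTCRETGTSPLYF at 1.02% in replicate 5. The largest non-pregnant clone, with TRBV1, TRBJ2-7 and 17 amino acids, held 1.78% (1.74% to 1.82%), which lies between those of E18 replicates 5 and 3. It was followed by TRBV1 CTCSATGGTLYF at 1.09% and TRBV13-2 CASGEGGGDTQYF at 1.01%. The largest clone of E18 replicate 3 held no inserted base, and neither did TRBV1 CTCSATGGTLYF of the non-pregnant library.

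The next 2 clones of the E18 libraries were TRBV16 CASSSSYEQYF (1.49%) and a TRBV2 TRBJ2-5 clone of 15 amino acids (1.16%) in replicate 1, and TRBV20 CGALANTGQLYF (4.13%) and TRBV13-1 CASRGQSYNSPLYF (1.94%) in replicate 2. In replicate 3 they were a TRBV13-2 TRBJ2-5 clone of 14 amino acids (1.91%) and TRBV19 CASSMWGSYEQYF (1.63%), in replicate 4 TRBV13-2 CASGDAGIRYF (3.43%) and TRBV13-2 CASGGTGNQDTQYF (2.86%), and in replicate 5 TRBV2 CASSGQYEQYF (0.981%) and TRBV13-2 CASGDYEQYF (0.815%). Each of these clones held less than 0.1% of every other library, apart from TRBV13-1 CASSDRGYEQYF, which also held 0.246% of E18 replicate 1 with 996 reads of the same nucleotide sequence, and TRBV13-2 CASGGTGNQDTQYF, which held 0.568% of E18 replicate 5. In that library 0 of its reads had the nucleotide sequence of replicate 4, so the same receptor chain was encoded there by other bases. The 3 largest non-pregnant clones held at most 0.000359% of the reads of any E18 library.

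The reads of the non-pregnant library were spread over more clones than those of each E18 library. Clonotypes above 0.1% of reads, called large clones below, numbered 169, 116, 163, 161 and 138 in E18 replicates 1 to 5 and 115 in the non-pregnant library. They held 42.9%, 66.4%, 38.2%, 49.3% and 32.4% of the reads at E18 (45.9% ± 13.0, SD, n = 5) and 27.3% in the non-pregnant library, which lay below all 5. The smallest number of clonotypes that together held 50% of the reads was 251, 19, 307, 169 and 438 at E18 and 566 in the non-pregnant library. In the Treg library of a naive non-pregnant mouse, given for scale, it was 2121, and 13 large clones held 2.57% of the reads.

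**Figure D2:**
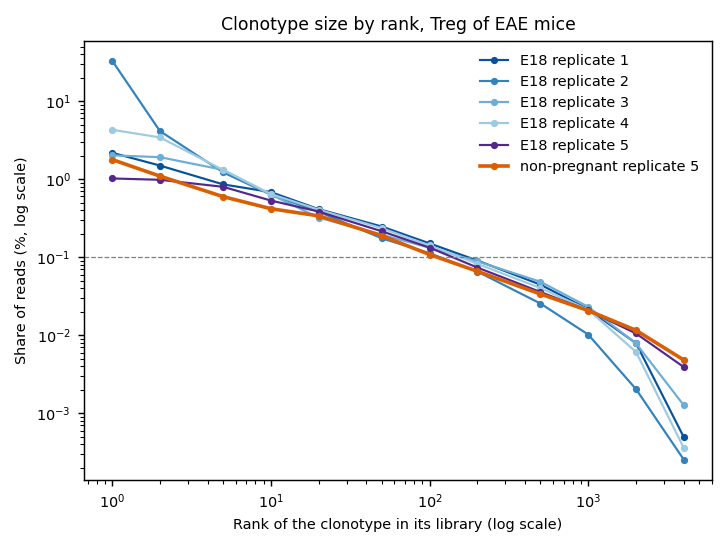
Share of reads of a clonotype (y, percent, log scale) by its rank in the library (x, log scale), for the 5 E18 libraries (blue and purple) and the non-pregnant library (orange); the dashed line marks 0.1%. E18 replicate 2 starts at 32.9%, and from rank 2000 on the non-pregnant line is the highest (0.0116% there, with E18 replicate 5 at 0.0105%).

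The share of the 10 largest clonotypes in the non-pregnant library lay inside the E18 range, and the shares of the 100 and 1000 largest lay below it. The 10 largest clonotypes held 10.6%, 45.4%, 12.2%, 19.05% and 7.47% of the reads at E18 (18.9% ± 15.4, SD, n = 5) and 7.94% in the non-pregnant library, inside the E18 range. The difference in means was -10.998 percentage points, and without E18 replicate 2 it was -4.39. With the largest clonotype of each library left out, the next 10 held 9.25%, 19.5%, 11.0%, 16.1% and 7.04% of the remaining reads at E18 and 6.67% in the non-pregnant library, below all 5. The 100 largest held 34.4%, 64.7%, 30.9%, 42.2% and 28.1% at E18 and 25.7% in the non-pregnant library, and the 1000 largest held 65.8% to 93.2% and 60.9%. The E18 libraries listed 4401 to 9384 clonotypes and the non-pregnant library 10086, so the 1000 largest were a smaller part of its clonotypes. The part of clonotype number in these shares was not tested.

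Clonotype number and evenness were higher in the non-pregnant library, with E18 replicate 5 close to it. After thinning to 278420 reads the E18 libraries held 6302, 4694, 5852, 4401 and 8946 clonotypes (6039 ± 1806, SD, n = 5) and the non-pregnant library 9215. Evenness, the Shannon entropy over its maximum, was 0.818, 0.587, 0.835, 0.7998 and 0.849 at E18 (0.778 ± 0.108, SD, n = 5) and 0.863 in the non-pregnant library. The Gini coefficient, which is 0 for equal clones, was 0.769 to 0.911 at E18 and 0.747. The difference in mean evenness was 0.0852, and without E18 replicate 2 it was 0.0374.

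These positions held when each rearrangement was kept only in its largest library: evenness was 0.863 against 0.601 to 0.849, and large clones held 27.5% against 32.5% to 67.3% of the reads. That setting left 276532 to 399695 reads in the E18 libraries, from 278420 to 404854 before. Values weighted by reads could therefore hardly move, and the setting cannot show whether these positions rest on shared rearrangements. Leaving out every rearrangement that another of the 6 libraries also listed, and so the shared large clones of E18 replicates 1 to 4, turned the count of large clones round, with 84, 65, 9, 8 and 90 at E18 and 100 in the non-pregnant library. E18 replicate 5 lay nearest to the non-pregnant library in evenness, in reads of large clones and in clonotype number. The inverse Simpson index, which weighs the largest clones most, was 724 in E18 replicate 5 and 703 in the non-pregnant library.

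**Figure D3:**
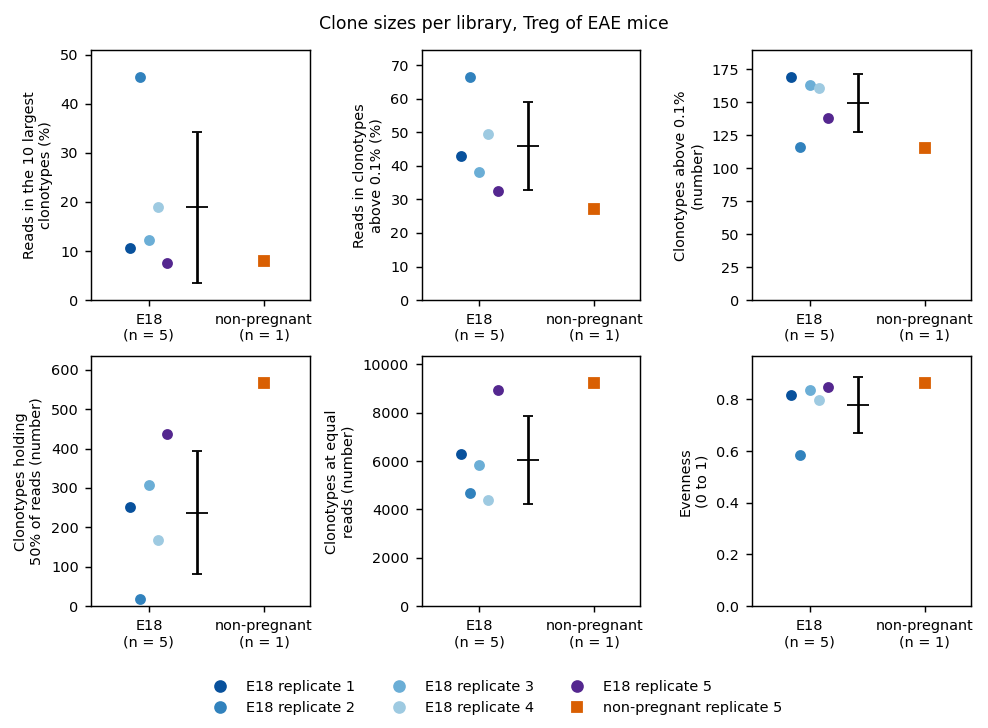
Measures of clone size per library (y axes in percent, number or evenness; dots for E18 replicates 1 to 5, orange square for the non-pregnant library; black bar, E18 mean ± SD, n = 5). The non-pregnant library lies outside the E18 range in all panels except the share of the 10 largest clonotypes (7.94% against 7.47% to 45.4%). E18 replicate 5 is nearest to it except for the number of clonotypes above 0.1%, where E18 replicate 2 is (116 against 115).

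Large clones had longer CDR3 in the non-pregnant library than in the E18 libraries. Their mean length was 13.21, 13.17, 13.69, 13.27 and 13.04 amino acids in E18 replicates 1 to 5 (13.28 ± 0.25, SD, n = 5) and 14.03 in the non-pregnant library. The clonotypes at or below 0.1% did not show this: their mean length was 13.70 to 13.81 at E18 and 13.81. Among large clones 31.9%, 31.9%, 14.7%, 27.95% and 29.0% had 12 amino acids or fewer at E18, and 12.2% in the non-pregnant library (14 of 115, Wilson 95% interval 7.39% to 19.4%). Those with 15 or more made up 20.7%, 20.7%, 21.5%, 23.6% and 13.0% at E18 and 34.8% in the non-pregnant library (40 of 115, 26.7% to 43.9%). E18 replicate 3 came nearest on mean length and on short CDR3.

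The difference in length remained within V segments. Set against the mean of the clonotypes at or below 0.1% with the same V segment and library, large clones were shorter by 0.65, 0.35, 0.14, 0.63 and 0.79 amino acids in E18 replicates 1 to 5, and longer by 0.13 in the non-pregnant library. Large TRBV13-2 clones averaged 12.59 to 13.52 amino acids at E18 and 13.86 in the non-pregnant library, and large TRBV1 clones 13.14 to 14.00 and 14.19. At a limit of 0.2% in place of 0.1% the non-pregnant mean length was 13.86 against 13.21 to 13.64, and at 0.05% it was 13.77 against 13.19 to 13.73. At 0.05% the value within V segments, -0.14 in the non-pregnant library, lay inside the E18 range of -0.65 to -0.12. Without rearrangements that another of the 6 libraries listed, mean length was 13.99 against 13.04 to 13.89, with as few as 8 large clones left in E18 replicate 4.

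Large clones also carried more inserted bases in the non-pregnant library. The mean, taken over the main rearrangement of each large clone, was 2.47, 2.58, 2.65, 2.73 and 2.66 at E18 (2.62 ± 0.096, SD, n = 5) and 3.02 in the non-pregnant library. Large clones without an inserted base made up 21.3%, 21.6%, 19.02%, 19.9% and 17.4% at E18 and 14.8% in the non-pregnant library. The non-pregnant value lay outside the E18 range in each case. For the 42 non-pregnant clonotypes above 0.2% the mean was 2.71, inside the E18 range of 2.45 to 2.86.

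The V segments of the large clones differed as well. TRBV1 (Vβ2), the most distal V segment of the locus (chromosome 6, 40891296 to 40891885, GRCm38.p6), made up 21 of 115 large clones in the non-pregnant library, which is 18.3% (Wilson 95% interval 12.3% to 26.3%). At E18 it made up 7 of 169, 3 of 116, 10 of 163, 10 of 161 and 9 of 138, or 2.59% to 6.52%. This was not particular to large clones: TRBV1 held 11.7% of the reads of clonotypes at or below 0.1%, against 4.33% to 8.41% at E18. TRBV13-2 (Vβ8.2; chromosome 6, 41121396 to 41121832), a segment known from encephalitogenic T cells of mice, made up 14 of 115, or 12.2% (7.39% to 19.4%). At E18 it made up 54 of 169, 36 of 116, 27 of 163, 59 of 161 and 41 of 138, or 16.6% to 36.6%. Both non-pregnant shares of large clones lay outside the E18 range, also at limits of 0.05% and 0.2%. Without rearrangements listed in another of the 6 libraries they were 16.0% against 2.38% to 12.5% for TRBV1, and 11.0% against 11.1% to 35.4% for TRBV13-2. The 12.5% came from E18 replicate 4 with 8 large clones left, and the 11.1% from E18 replicate 3 with 9. These limits rest on too few clones to place the non-pregnant shares, which came from 100 large clones.

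**Figure D4:**
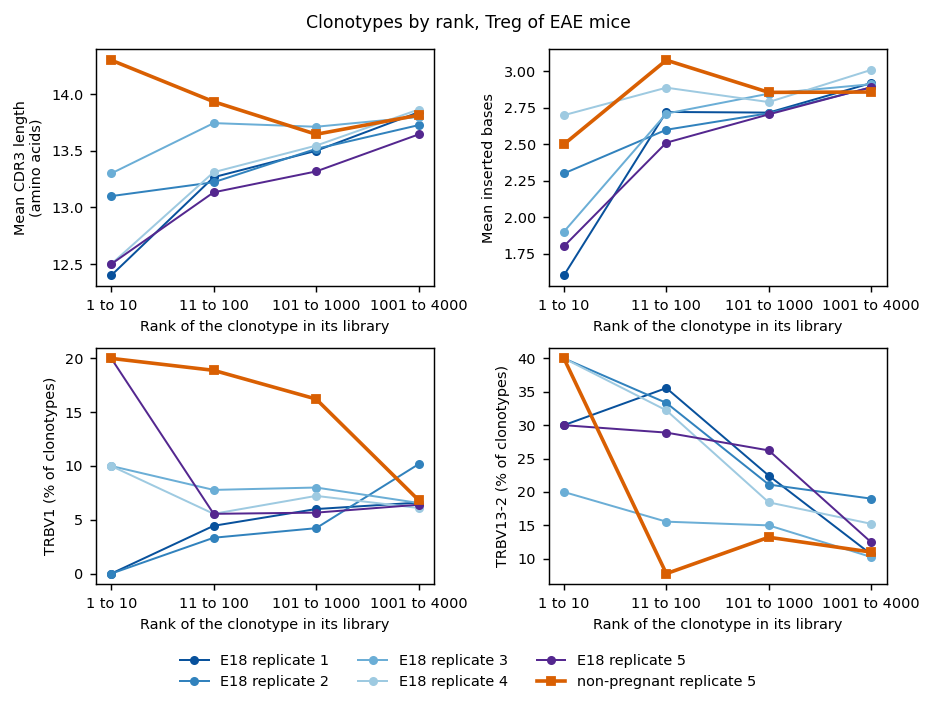
Mean CDR3 length, mean inserted bases and the percent of clonotypes with TRBV1 or TRBV13-2 (y axes) for clonotypes of rank 1 to 10, 11 to 100, up to 1000 and up to 4000 (x axis) in each library (lines; orange, non-pregnant). In the class of rank 11 to 100 the non-pregnant line lies outside the 5 E18 lines in all 4 panels (13.93 amino acids, 3.08 bases, 18.9% TRBV1 and 7.78% TRBV13-2). Beyond rank 1000 it lies among them for length, TRBV1 and TRBV13-2, and below them for inserted bases.

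By rank, the non-pregnant library stood outside the E18 range down to rank 1000 for the V segments, and down to rank 100 for length. Among clonotypes of rank above 100 and up to 1000 TRBV1 made up 16.2% in the non-pregnant library and 4.22% to 8% at E18, and TRBV13-2 made up 13.2% and 15.0% to 26.2%. Mean length in that class was 13.65, inside the range of 13.32 to 13.71. Among clonotypes of rank above 1000 and up to 4000 TRBV1 made up 6.83%, inside the range of 6.10% to 10.2%. In the 10 largest clonotypes TRBV1 and TRBV13-2 lay inside the E18 range, at 20% and 40%. Mean inserted bases also lay inside the range there, at 2.5 against 1.6 to 2.7. They lay above it from rank 11 to rank 1000. Beyond rank 1000 and up to 4000 they turned below it, at 2.859 against 2.891 to 3.011.

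Over all clonotypes, each counted once, the CDR3 differed little. Mean length was 13.80, 13.69, 13.79, 13.77 and 13.75 amino acids at E18 (13.76 ± 0.043, SD, n = 5) and 13.81 in the non-pregnant library, a difference of 0.052. Weighted by reads it was 13.36, 13.58, 13.68, 13.22 and 13.33 at E18 (13.43 ± 0.19) and 13.84 in the non-pregnant library, a difference of 0.409. Clonotypes of 17 or more amino acids made up 1.96% to 2.46% at E18 and 2.71% in the non-pregnant library. The non-pregnant library listed 13 rearrangements with a CDR3 over 30 amino acids, against 0 to 6 at E18, and without these the difference in mean length was 0.024.

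Inserted bases over all rearrangements were alike in size. They averaged 2.999 to 3.029 at E18 (3.01 ± 0.012, SD, n = 5) and 3.05 in the non-pregnant library. The difference of 0.042 turned to -0.033 without CDR3 over 30 amino acids, so its direction rests on such very long CDR3. Rearrangements without an inserted base made up 17.1% to 17.4% at E18 and 16.7% in the non-pregnant library (1762 of 10549, Wilson 95% interval 16.0% to 17.4%), and the interval reaches the E18 values. A D segment was assigned in 70.5% to 73.2% of E18 and 70.7% of non-pregnant rearrangements. V-D joints carried 1.19 to 1.24 inserted bases at E18 and 1.30 in the non-pregnant library, above the range. D-J joints carried 1.37 to 1.44 inserted bases at E18 and 1.34 in the non-pregnant library, below it. Both joint values include the CDR3 over 30 amino acids, and the part of these in them was not tested.

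The middle of the CDR3, without 3 residues at each end, was slightly less negatively charged in the non-pregnant library. Its mean net charge was -0.73, -0.73, -0.71, -0.72 and -0.69 at E18 (-0.72 ± 0.016, SD, n = 5) and -0.67 in the non-pregnant library. Of 20 amino acids, 4 (20%) lay above the E18 range in the non-pregnant library and 2 (10%) below it. These counts do not exceed the share of 0.333 expected outside the range, above and below together, for like libraries. Aspartate made up 6.93% of residues against 7.16% to 7.602% at E18, and glycine 19.03% against 19.1% to 20.5%. Phenylalanine, leucine, asparagine and valine lay above, with phenylalanine at 0.813% against 0.628% to 0.732%. Clonotypes with hydrophobic residues at CDR3 positions 6 and 7, a feature linked to self-reactivity in mice, made up 2.86% in the non-pregnant library and 2.73% to 3.13% at E18. Those with a cysteine anywhere between the first and last residue made up 6.55% and 6.16% to 7.38%. Both lay inside the E18 range. The cysteine count takes in the CTC start of the TRBV1 clones named above, so it does not measure a cysteine of the loop itself. TRBV1 clonotypes made up 6.27% in the non-pregnant library and 5.77% to 7.06% at E18. In the middle of the CDR3, cysteine was 0.0241% of residues in the non-pregnant library and 0.0220% to 0.0461% at E18.

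V and J use by reads gave no call. Of 36 V and J segments tested by edgeR's quasi-likelihood test, 0 (0%) had a Benjamini-Hochberg adjusted p under 0.05, and 4 had an unadjusted p below 0.05. By clonotypes, where a clonotype counts once whatever its reads, the same test gave 0 (0%) of 34, and 2 had an unadjusted p below 0.05. In DESeq2 0 segments passed either way, with 4 and 1 below 0.05 before adjustment. Among segments of at least 0.5% in any library, the non-pregnant share by reads lay above the E18 range for 11 of 30 (36.7%) and below it for 5 (16.7%). By clonotypes it lay above for 4 of 32 (12.5%) and below for 5 (15.6%). For like libraries a share of 0.333 is expected outside the range, above and below together, and the counts by clonotypes do not exceed it. The lone non-pregnant library was assumed to vary like the E18 libraries in these fits.

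TRBV1 was the V segment with the highest share of reads in the non-pregnant library. It held 4.79%, 1.87%, 7.72%, 6.68% and 7.34% of the reads in E18 replicates 1 to 5 (5.68% ± 2.4, SD, n = 5) and 15.4% in the non-pregnant library (Wilson 95% interval 15.3% to 15.5%). No E18 library came within 7 percentage points of it, and the fitted log2 change of non-pregnant over E18 was 1.13 (SE 0.48, edgeR adjusted p = 0.34). Counted once, TRBV1 clonotypes made up 5.98%, 6.46%, 7.06%, 5.77% and 5.83% at E18 and 6.27% in the non-pregnant library, inside the range (log2 change 0.02, SE 0.12). Reads per TRBV1 clonotype were higher. The median TRBV1 clonotype with at least 2 reads had 1.19, 0.73, 1.5, 1.58 and 1.22 times the median of all V segments at E18 and 2.77 times in the non-pregnant library. In the naive Treg library it had 2.14 times, and in the 4 conventional T cell libraries 1.45 to 2.17 times. Without clonotypes above 0.1% TRBV1 still held 11.7% of the reads, against 4.33% to 8.41% at E18. Whether amplification of TRBV1 differed between libraries was not tested.

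TRBV14 (Vβ13; chromosome 6, 41135167 to 41135616) and TRBV17 (Vβ9; 41163092 to 41163556) lay furthest above the E18 range as a ratio to the nearest E18 library (2.38 and 2.23 times, against 1.99 for TRBV1), at shares under 2%. TRBV14 held 0.221%, 0.0533%, 0.413%, 0.194% and 0.494% of the reads at E18 and 1.17% in the non-pregnant library (log2 change 1.84, SE 0.74, edgeR adjusted p = 0.34). TRBV17 held 0.227%, 0.0879%, 0.748%, 0.133% and 0.227% and 1.67% (log2 change 2.29, SE 0.78, adjusted p = 0.34). Without E18 replicate 3, the highest of the 5, TRBV17 was called (log2 change 2.72, adjusted p = 0.0297). By clonotypes both lay inside the E18 range, at 1.2% and 1.06%. Their median clonotype was also larger relative to the library, at 0.932 times for TRBV14 (0.267 to 0.5 at E18) and 1.18 times for TRBV17 (0.308 to 0.875). TRBV16 (Vβ11) held 1.25% to 7.94% and 9.38%.

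**Figure D5:**
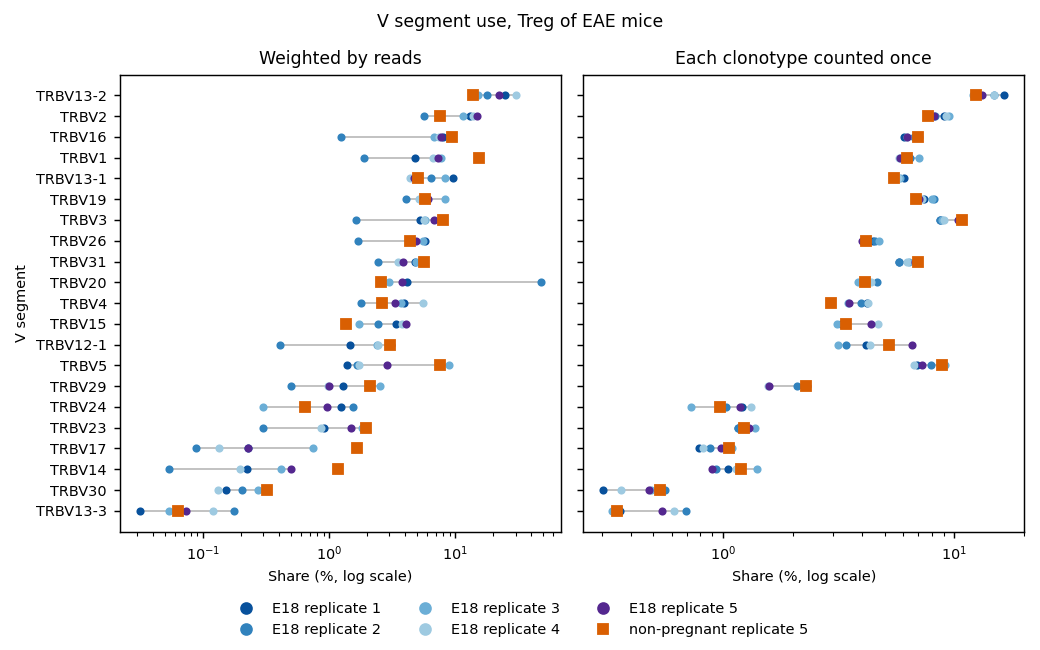
Share of each V segment (x, percent, log scale) weighted by reads (left) and with each clonotype counted once (right), for E18 replicates 1 to 5 (dots; the grey line spans their range) and the non-pregnant library (orange square), for segments of at least 0.5% in any library. By reads TRBV1, TRBV14 and TRBV17 lie to the right of all E18 dots (15.4%, 1.17% and 1.67%), and by clonotypes their squares lie among the dots.

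TRBV13-2 was the leading V segment of all E18 libraries except replicate 2 and came second to TRBV1 in the non-pregnant library. It held 24.7%, 17.9%, 15.2%, 29.995% and 22.1% of the reads at E18 (22.0% ± 5.8, SD, n = 5) and 13.8% in the non-pregnant library (log2 change -1.13, SE 0.63, edgeR adjusted p = 0.477). E18 replicate 3 lay 1.1 times above the non-pregnant value. By clonotypes TRBV13-2 made up 12.1% to 16.5% at E18 and 12.5% in the non-pregnant library, inside the range. TRBV15 (Vβ12) held 3.36%, 2.43%, 1.73%, 3.74% and 4.05% at E18 and 1.35% (log2 change -1.63, SE 0.68, adjusted p = 0.34). TRBV20 (Vβ15) held 2.61% to 4.14% in 4 E18 libraries, 47.8% in replicate 2 and 2.60% in the non-pregnant library, and without the largest clone of each library replicate 2 still held 22.1%. With the largest clone of each library left out, 10 of 30 segments lay above and 7 below the E18 range, and TRBV1 held 13.8% against 2.79% to 7.88%.

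By clonotypes the differences in V use were small. TRBV4 (Vβ10) made up 4.19%, 3.94%, 3.47%, 4.25% and 3.495% at E18 (3.87% ± 0.37, SD, n = 5) and 2.93% in the non-pregnant library (log2 change -0.39, SE 0.15, edgeR adjusted p = 0.698). TRBV2 (Vβ4) made up 8.19% to 9.47% and 7.68%, and TRBV19 (Vβ6) 7.04% to 8.20% and 6.80%. TRBV3 (Vβ16) lay above, at 10.8% against 8.68% to 10.4%, and so did TRBV31 (Vβ14), at 6.98% against 5.75% to 6.78%. All lay within 1.18 times of the nearest E18 library.

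Among J segments, TRBJ2-4 (chromosome 6, 41543362 to 41543410) held 4.91%, 3.53%, 8.37%, 6.54% and 6.77% of the reads at E18 (6.02% ± 1.9, SD, n = 5) and 11.2% in the non-pregnant library (log2 change 0.82, SE 0.34, edgeR adjusted p = 0.34). By clonotypes it made up 9.18% to 10.9% and 10.8%, inside the range. TRBJ1-1 held 8.57%, 8.30%, 6.97%, 8.46% and 6.74% of the reads at E18 and 4.64% in the non-pregnant library (log2 change -0.88, SE 0.36, adjusted p = 0.34). TRBJ1-2 held 1.51% to 7.11% and 1.06%. By clonotypes these 2 lay inside the range, at 9.88% and 4.12%. TRBJ1-6 (4.54% to 5.53% of clonotypes at E18, 4.34% in the non-pregnant library) and TRBJ2-1 (10.4% to 12.2% and 10.1%) lay below the range, and TRBJ2-3 (6.95% to 8.18% and 8.35%) above it.

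TRBJ1-5 (chromosome 6, 41535084 to 41535133) split the E18 libraries. It held 0.718% of the reads in E18 replicate 1 and 0.00841%, 0.0165%, 0.0133% and 0.0217% in replicates 2 to 5, with 0.583% in the non-pregnant library. By clonotypes it made up 1.21%, 0.168%, 0.174%, 0.159% and 0.234% at E18 and 1.43% in the non-pregnant library. The log2 change was 1.93 by reads (SE 2.33, edgeR adjusted p = 0.791) and 1.87 by clonotypes (SE 0.87, adjusted p = 0.698). Without E18 replicate 1 TRBJ1-5 was called by reads (log2 change 5.18, adjusted p = 0.000334) and by clonotypes (2.90, adjusted p = 5.83e-09). Among the other 11 libraries of the series 3 had low TRBJ1-5 levels (0.0125% to 0.0175%) and 8 had high ones (0.598% to 3.12%). Whether amplification of TRBJ1-5 differed between libraries was not tested. E18 and non-pregnant libraries occurred at both levels.

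Grouped by family, the Vβ8 segments (TRBV13-1, TRBV13-2 and TRBV13-3) together held 34.2%, 24.5%, 23.5%, 34.5% and 26.8% of the reads at E18 and 18.9% in the non-pregnant library. Of the 3 members, 0 were called and TRBV13-2 lay below the range, with TRBV13-1 at 5.02% (4.35% to 9.51% at E18) and TRBV13-3 at 0.0626% (0.0314% to 0.175%) inside it. The median log2 change over the members was -1.13, against 0.15 over all tested V segments. The Vβ5 segments TRBV12-1 and TRBV12-2 held 0.410% to 3.10% at E18 and 3.04% in the non-pregnant library, and 0 of 2 were called. Their median log2 change was 0.15. The members of each family resemble each other closely, and the rule by which the deposited tables tell them apart is not given in the sources used here. J cluster 1 held 25.1%, 27.2%, 23.2%, 24.7% and 25.6% at E18 and 20.7% in the non-pregnant library, and J cluster 2 held the rest. By clonotypes both lay inside the range (27.2% for cluster 1, 23.9% to 27.9% at E18), and 0 of 13 J segments tested by reads and 0 of 12 tested by clonotypes were called.

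Segments favoured by natural killer T cells (TRBV13-2, TRBV29 and TRBV1), a marker of another cell type a sort could hold, together held 30.8%, 20.3%, 25.5%, 37.7% and 30.4% of the reads at E18 and 31.2% in the non-pregnant library. TRBV29 (Vβ7) held 0.499% to 2.54% and 2.09%. The sum and TRBV29 lay inside the range, and 0 of 3 members were called. These segments are used by many conventional and regulatory T cells, and the part of natural killer T cells in the TRBV1 result was not tested.

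Few clonotypes were common to many libraries. Of the 18 clonotypes found in all 5 E18 libraries, 10 were also found in the non-pregnant library, and 7 of these 10 used TRBV13-2. Among the clonotypes found in 1 or 2 E18 libraries, 2.83% and 7.12% were also in the non-pregnant library. TRBV13-2 made up 12.1% to 16.5% of all clonotypes at E18 and 12.5% in the non-pregnant library. Among large E18 clones it made up 16.6% to 36.6%. After the carry-over filter 0 clonotypes remained in all 5 E18 libraries. Then 36 were found in 4 E18 libraries, of which 12 were also in the non-pregnant library, and 233 in 3, of which 38 were. Of those found in 1 or 2 E18 libraries after the filter, 2.58% and 6.56% were. The pairs of the non-pregnant library with E18 libraries shared 155 to 310 clonotypes after the filter, and those of E18 replicate 5 with other E18 libraries 129 to 232.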

How the data were processed

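TCRβ rearrangements were amplified from genomic DNA with primers for mouse V and J segments, per the labels' protocols. The deposited tables list CDR3 nucleotide sequences with their reads as raw counts, their fraction of the library's reads (count over the table's total), the V, D and J segments and the segment ends within the CDR3. The submitters' processing notes name mm10, and the program that assigned segments is not given in the sources used here. Segment positions come from RefSeq's annotation of GRCm38.p6, the same build.

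Totals were 278420 to 415058 reads in the 6 libraries, with Wilson 95% intervals for shares. Inserted bases were counted between the V, D and J ends, and overlapping V and J ends counted as 0. Thinning used 20 draws. Segment counts were tested by the two-sided quasi-likelihood test of edgeR 4.0.16 under R 4.3.3, after TMM scaling, by reads and with each clonotype counted once, for segments with a mean of at least 10. V and J counts had a fit each, and 1 Benjamini-Hochberg adjustment at 0.05 covered both. Nothing in the labels says that samples came from separate animals, so p-values measure the spread between these samples. The fit was tested on simulated data. The other tool was DESeq2 1.42.0. Other values came from Python 3.11.15 with pandas 2.3.3, numpy 2.4.6 and scipy 1.17.1, and plots from matplotlib 3.10.9.

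The libraries, lists and tests were chosen with earlier results of these data known. Named were segments past the threshold, the 5 furthest above and below the E18 range among those of at least 0.5%, the list members and the 3 largest clonotypes of each library. One of these clonotypes, of E18 replicate 1, is not reported here. The clonotypes common to all 6 libraries were to be named after the carry-over filter, which left 0. Values of large clones, of the largest library only and without very long CDR3 were added after seeing the data, as were the TRBV1 share of reads and the shares without each library's largest clonotype. CDR3 of 15 or more amino acids are given by segments or nucleotides.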

Additional observations from a re-analysis of the deposited data

Results flagged for a closer look

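Among 73 values looked at, 11 had 1 E18 library far from the other 4 (Dixon's test, 95% critical value 0.71), and chance gives about 1 in 20. E18 replicate 2 accounted for 7 of them. Its largest clonotype held 32.9% of the reads against 1.02% to 4.29% in the other E18 libraries, and its evenness was 0.587 against 0.7998 to 0.849. It held 47.8% TRBV20 (2.61% to 4.14% elsewhere) and 46.4% TRBJ2-5 (22.2% to 25.7%), the 2 segments of that clone. Its reads held 1.25% TRBV16 (6.82% to 7.94%), 5.50% TRBJ1-3 (7.26% to 7.96%) and 2.33% TRBJ2-3 (4.76% to 5.35%). These 7 values are not independent, because a clone with 32.9% of the reads lowers the other shares of its library. Without each library's largest clonotype, replicate 2 held 8.20% TRBJ1-3, the highest at E18. TRBV16 (1.86%) and TRBJ2-3 (3.47%) stayed below the other E18 libraries. E18 replicate 1 held 0.718% TRBJ1-5 by reads (0.00841% to 0.0217% elsewhere) and 1.21% by clonotypes (0.159% to 0.234%). E18 replicate 3 held 0.748% TRBV17 by reads (0.0879% to 0.227%). E18 replicate 5 held 10.4% TRBV3 by clonotypes (8.68% to 9.07%).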

How the results depend on the processing

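No paired analysis was possible because the groups share a single replicate number. Values are differences, non-pregnant minus the E18 mean. Without 1 E18 library in turn, the share of the 10 largest clonotypes differed by -13.9 to -4.39 percentage points, clonotypes at equal reads by 2767 to 3903, evenness by 0.0374 to 0.103, mean CDR3 length by 0.0349 to 0.0615 and mean inserted bases by 0.0395 to 0.0469. Segments called numbered 0 to 1 by reads (TRBJ1-5 without E18 replicate 1, TRBV17 without replicate 3) and 0 to 1 by clonotypes (TRBJ1-5 without replicate 1), and 0 in all other settings run. Mean CDR3 length weighted by reads differed by 0.409. Mean inserted bases differed by 0.0559 with at least 2 reads per rearrangement, 0.106 weighted by reads and 0.0226 with each rearrangement only in its largest library. The direction turned with CDR3 from cysteine to phenylalanine or tryptophan (-0.0306) and with CDR3 of at most 30 amino acids (-0.0327). Every alternative run kept the direction for mean length and inserted bases of large clones and for the TRBV1 share of reads. The count of large clones turned round without rearrangements that another of the 6 libraries listed, as given above. Mean length of large clones differed by 0.75 amino acids, 0.691 to 0.854 without 1 E18 library, 0.389 at a limit of 0.05% and 0.499 at 0.2%. Their inserted bases differed by 0.40, 0.364 to 0.427 without 1 E18 library, 0.349 at 0.05% and 0.127 at 0.2%. The TRBV1 share differed by 9.68 percentage points, 8.73 to 10.2 without 1 E18 library and 8.04 without each library's largest clonotype. The 1 non-pregnant library has no replicate, the shared rearrangements of E18 replicates 1 to 4 leave the number of independent samples uncertain, and cell numbers are unknown.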

Other observations

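Clonotypes also listed in a CNS library of EAE mice held 5.605%, 62.5%, 28.1%, 36.03% and 3.64% of the reads of E18 replicates 1 to 5 and 3.10% of the non-pregnant library. After the carry-over filter they held 3.84%, 6.41%, 5.41%, 7.37% and 2.60%, and 2.68%, which then lay inside the E18 range.

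The median clonotype of TRBV23 (Vβ20), relative to that of all V segments, was 1.42, 0.80, 1.45, 1.74 and 1.19 times at E18 and 2.77 times in the non-pregnant library, with 3.11 times in the naive Treg library. For TRBV15 it was 0.70 to 1.33 times at E18, 0.41 times in the non-pregnant library and 0.36 times in the naive Treg library. The E18 values of TRBV1, TRBV14, TRBV15 and TRBV23 thus lay on one side of both non-pregnant Treg libraries. The conventional T cell library of an E18 EAE mouse had 2.17 times for TRBV1, 0.778 for TRBV14, 0.389 for TRBV15 and 2.28 for TRBV23, and that of a non-pregnant EAE mouse had 1.45, 0.323, 0.613 and 1.13 times.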
